A study of Sus scrofa with 70 samples.

Results

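The RNA splicing regulators described here are the genes whose names begin with SRSF, HNRNP, PTBP, CELF, MBNL, RBFOX, NOVA, ESRP, RBM, KHDRBS, ELAVL or QKI in the annotation deposited with the data. The rule gave 91 names on 90 gene identifiers, out of 35552 genes in the expression table. HNRNPA1 and HNRNPA1L3 share 1 identifier and are given as HNRNPA1. The 90 genes fell into 38 RBM, 15 HNRNP, 11 SRSF, 5 CELF, 4 ELAVL, 3 KHDRBS, 3 MBNL, 3 PTBP, 3 RBFOX, 2 ESRP and 2 NOVA genes and QKI. Genes without a name in the annotation could not be members. The name groups were set with earlier results of these data known.

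The samples came from boars aged 12 months of the Diannan small-ear pig (DSE) and of the Banna mini-pig inbred line (BMI), which was bred from DSE. The 5 tissues sampled in each breed were the testis, the epididymis and 3 accessory sex glands, namely the vesicular, the prostate and the bulbourethral gland. Short-read RNA-seq covered 3 libraries for each breed and gland, 30 in all, and full-length Iso-seq covered 1 library for each, 10 in all. The sources used here do not say which libraries share an animal or which stretch of the epididymis was taken, and p-values then measure the spread between these libraries only. All levels are TPM, which give a gene's share of all transcripts of the library corrected for transcript length, summed over the isoforms of a gene.

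Splicing regulators bind short sequences in pre-mRNA and decide which exons are kept. SR proteins (SRSF) mostly bind exons and promote their use, whereas hnRNPs and PTB proteins often hold back exons. Many CELF, MBNL, RBFOX, NOVA, ELAVL, KHDRBS, QKI and ESRP proteins act in particular tissues, chiefly brain, muscle and epithelia, while others are expressed broadly. The RBM genes are named only for their RNA-binding domain. Testis is known for the large number of isoforms it makes, and many splicing regulators control their own transcripts through poison exons. These are exons that carry an early stop codon and send the transcript to nonsense-mediated decay (NMD).

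The gland labels were compared with lists of marker genes. The 7 spermatid markers summed to between 23407 and 101931 TPM in testis and to at most 936 TPM in any other library. The 4 prostate markers summed to at least 89015 TPM in prostate gland and to at most 2342 TPM elsewhere. The 8 epithelial markers summed to between 18.02 and 48.1 TPM in testis and to between 806 and 3079 TPM in the other glands. A testis and a prostate library stood apart. DSE testis replicate 2 had the lowest sums of spermatid markers (23407 TPM, against 67582 to 101931 TPM in the other 5) and spermatocyte markers (129 TPM, against 318 to 522). It had the highest sums of Leydig cell markers (63471 TPM, against 18555 to 32309) and Sertoli cell markers (671 TPM, against 237 to 409). The main counts are therefore also given without it.

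BMI prostate gland replicate 2 held RNA of the kind found in vesicular gland. AWN and PSP-II, sperm-coating spermadhesins of seminal plasma, and BSP1, a sperm-binding protein, summed to between 100279 and 149893 TPM in vesicular gland and to 72888 TPM in this library, against 0.509 to 6.23 TPM in the other 5 prostate libraries. These genes were picked after their values were seen. Over the 19796 fitted genes its mean correlation was 0.955 with the vesicular gland libraries and 0.930 with the other prostate libraries, whereas each of the other 29 libraries had its highest mean correlation with its own gland. The BMI prostate library of Iso-seq held 2301 reads of the same genes, between the 1979 and 3360 reads of the vesicular gland libraries, and the DSE prostate library held 0. In epididymis the sum ran from 1.43 to 3486 TPM. The counts of calls of members that involve the prostate gland are given with and without this RNA-seq library. The BMI prostate library stays among the other glands in sums of full-length reads, and the source of this RNA was not tested. In bulk tissue, fewer cells of a type and less RNA per cell cannot be told apart.

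The share of TPM left for ordinary genes also differed between glands. Size factors from the median of ratios ran from 0.393 to 0.973 in vesicular gland and from 0.950 to 1.68 in epididymis. On deposited TPM, the median difference over all 19796 fitted genes was 0.31 for testis against the other glands, 0.41 for epididymis and -0.54 for vesicular gland against the remaining glands, on the log2(TPM + 1) scale. After division by size factors these medians were 0.13, 0.03 and -0.03. Differences between glands are therefore given on deposited TPM, and the value after this division is added where the call changed.

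Testis was set against the mean of the other 4 glands. At least 1 TPM in at least 3 libraries was reached by 89 members, and KHDRBS2 did not reach it, with 0.0583 to 0.322 TPM in testis. The filter let in genes that reached 1 TPM in testis and in fewer than 3 of the 24 other libraries, and such genes had to differ. Their differences are given below without a p-value. A gene was called at a limma adjusted p below 0.05 and a log2 difference of at least 1. Of the 89 members, 31 were called higher in testis, 4 were called lower and 54 were not called. CELF3, CELF4, CELF5, CELF6, ELAVL2, ELAVL3, ELAVL4, RBM20, RBM44 and RBM46, 10 of the 31 called higher (32.3%), had passed the filter only through testis, as had 38.4% of all genes called higher. Over all genes, 47.3% were called, 34.6% higher and 12.7% lower, against 39.3%, 34.8% and 4.49% of the members. The median difference was 0.29 over the members and 0.31 over all genes. After division by size factors, 24 members were called higher (27.0%, against 31.7% of all genes) and 6 lower (6.74%, against 15.8%), and 28 of the 35 calls remained. The calls of ELAVL1, HNRNPLL, HNRNPU, RBM11, RBM14, RBM34 and RBMS3 were lost, with values from 0.77 (RBM34) to 0.96 (RBM11), and RBM41 (-1.05) and RBMXL1 (-1.16) were added as lower. In that scaling 47.5% of all genes were called, and the share of calls that were higher was 66.7%, against 73.1% on deposited TPM. In BMI alone 37 members were called (against 49.7% of all genes) and in DSE alone 30 (against 44.0%). The BMI count was 35 without BMI prostate gland replicate 2 (against 49.7% of all genes). MBNL2 (-0.987, from -1.005) and RBM11 (1.13 with adjusted p = 0.0561, from 1.14) were lost there, with values that hardly moved. Without DSE testis replicate 2, 38 were called (against 49.1% of all genes), since RBM28 was added as higher, RBM41 and RBMXL1 as lower, and no call was lost. Without DSE testis replicate 3, 31 were called (against 46.3%). Without BMI prostate gland replicate 2 the 35 calls were the same (against 47.4% of all genes). For 17 of the 89 members, all 6 testis libraries lay above the other 24 libraries, a pattern met by 23.8% of all genes.

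**Figure D1:**
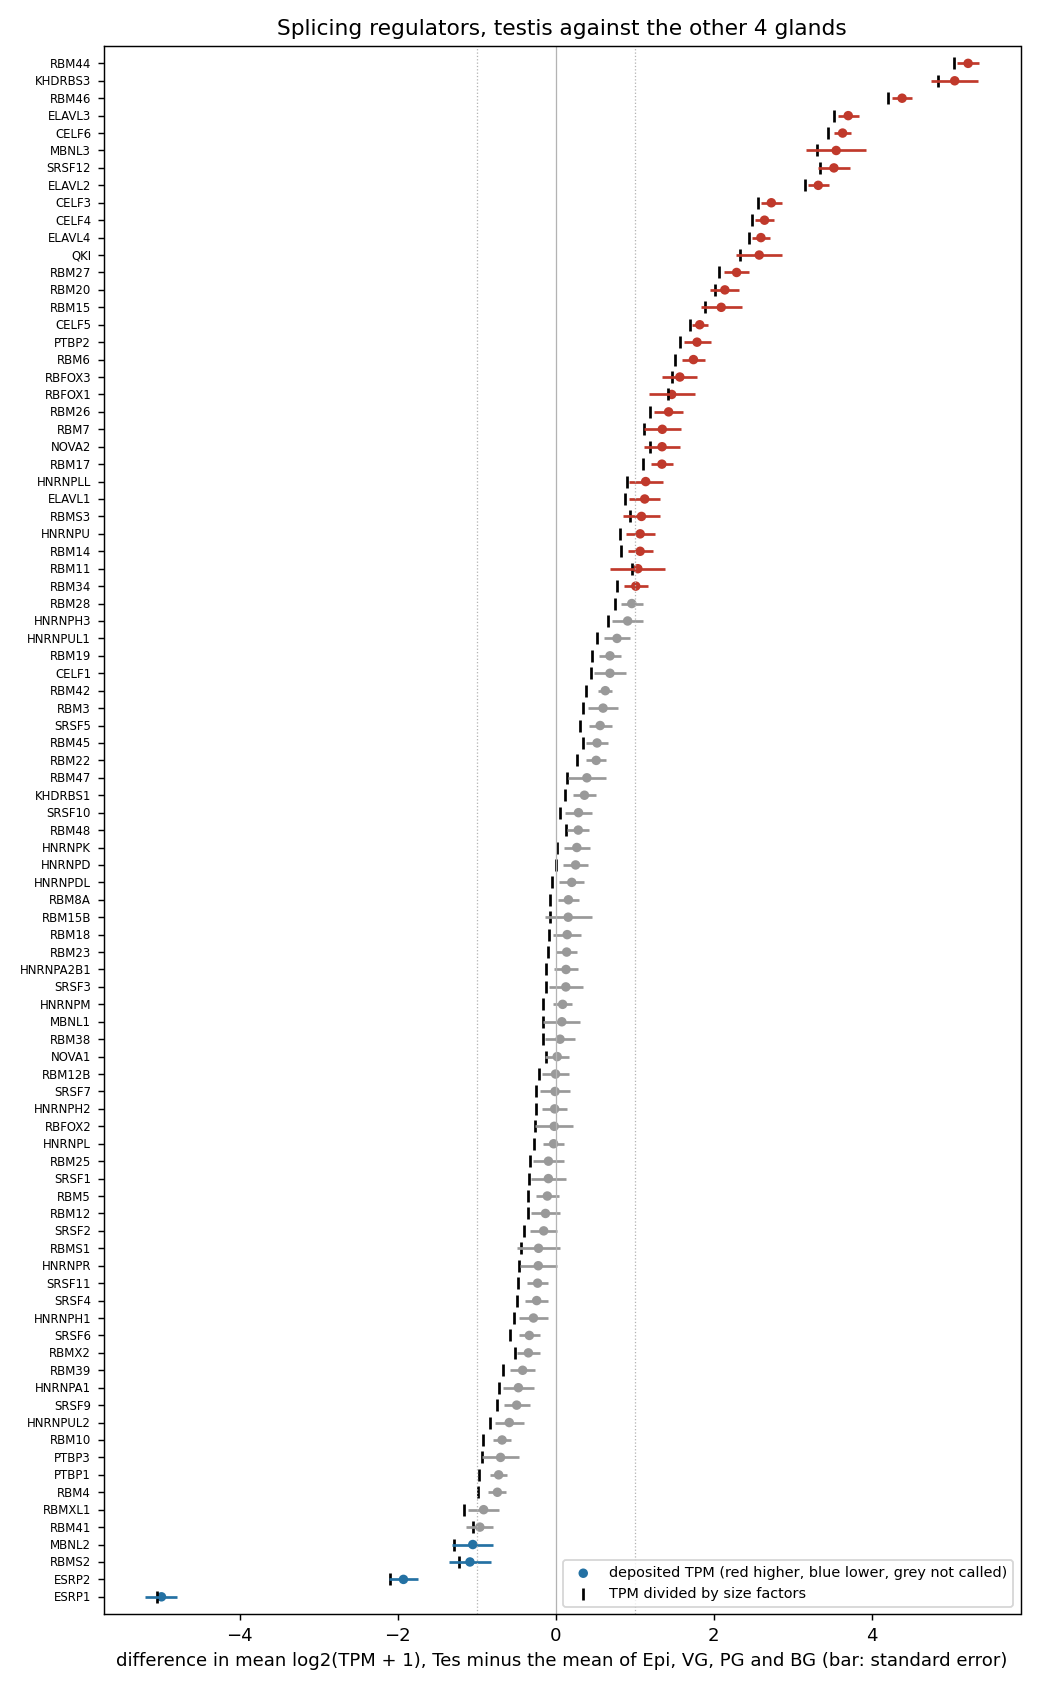
Difference in mean log2(TPM + 1) between testis and the mean of the other 4 glands for the 89 fitted members, with bars of 1 standard error. Red points are called higher (31) and blue points lower (4), grey points are not called, and black ticks give the same difference after division by size factors, which all lie to the left of their points.

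Among the largest differences were those of RNA-binding proteins known from germ cells. RBM44, a germ cell protein found at the bridges between dividing germ cells, had 14.7, 45.8 and 57.2 TPM in the lowest, median and highest testis library and at most 0.317 TPM in any other library. Its difference was 5.22 ± 0.14 (SE). RBM46, needed for meiosis in mice, had 9.66 to 33.4 TPM in testis and at most 0.206 TPM elsewhere (4.38 ± 0.12). In both genes no testis library overlapped the other glands, and DSE testis replicate 2 was the lowest of the 6. SRSF12, an SR protein whose human form is known to counteract other SR proteins, had 5.87 to 33.8 TPM in testis and 0.149 to 2.19 TPM elsewhere (3.52 ± 0.20, adjusted p = 2.90e-14).

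SRSF12 was the only 1 of the 11 SRSF genes that was called, beside 9373 of all 19796 genes. The other 10 SRSF genes had differences from -0.49 (SRSF9) to 0.56 (SRSF5), and with size factors all but SRSF5 and SRSF10 among those 10 were below 0. These genes were abundant in every gland. SRSF2, a core SR protein, had mean levels from 117 TPM in vesicular gland to 201 TPM in prostate gland, with 148 TPM in testis.

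The CELF family was split by level. CELF3, CELF4, CELF5 and CELF6, whose proteins bind GU-rich RNA, had passed the filter only through testis and so had to differ. Only their levels are compared here. CELF1, which is expressed broadly, passed the filter in the other glands as well and was not called. CELF6 had 4.46, 13.8 and 17.3 TPM in the lowest, median and highest testis library and at most 0.0573 TPM elsewhere, a difference of 3.63 ± 0.11. CELF3 had 2.61 to 9.51 TPM in testis and at most 0.101 TPM elsewhere (2.73 ± 0.13). The testis ranges were 2.78 to 9.70 TPM for CELF4 and 1.15 to 4.48 TPM for CELF5, again above all 24 other libraries. CELF1 had 21.9 to 32.5 TPM in testis and 5.20 to 30.8 TPM elsewhere, with overlapping ranges (0.69 ± 0.20, adjusted p = 0.00319).

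ELAVL2, ELAVL3 and ELAVL4, the neuronal members of the Hu family of AU-rich element binders, showed the same order of levels. ELAVL3 reached 4.57 to 17.0 TPM in testis against at most 0.190 TPM elsewhere (3.70 ± 0.13). ELAVL2 reached 3.61 to 14.2 TPM (3.32 ± 0.13) and ELAVL4 1.88 to 8.51 TPM (2.60 ± 0.11), both without overlap. ELAVL1, the broadly expressed HuR, had 120 to 160 TPM in testis and 27.0 to 125 TPM elsewhere. Its difference of 1.13 ± 0.19 was called on deposited TPM and, at 0.88, not after division by size factors.

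NOVA2 and RBFOX3, further neuronal regulators, were called higher in testis, but their ranges overlapped those of other glands. NOVA2 had 1.19 to 7.59 TPM in testis and 0.321 to 4.92 TPM elsewhere (1.35 ± 0.23). RBFOX3 had 1.499 to 4.02 TPM in testis and 0 to 4.10 TPM elsewhere (1.57 ± 0.22). RBFOX1 (1.47 ± 0.29) was called too, with its highest levels in epididymis, whereas NOVA1 (0.02 ± 0.16) and RBFOX2 (-0.02 ± 0.24) were not called. The 6 neuron markers summed to between 23.2 and 62.2 TPM in testis and to between 1.12 and 16.6 TPM elsewhere. Of these markers, TUBB3 (14.3 to 45.4 TPM) and GAP43 (3.91 to 17.2 TPM) made up most of the testis sum, while STMN2 was at most 0.0828 TPM in testis and up to 7.43 TPM elsewhere, and SYP was at most 0.673 TPM in testis. Their part in the result was not tested.

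**Figure D2:**
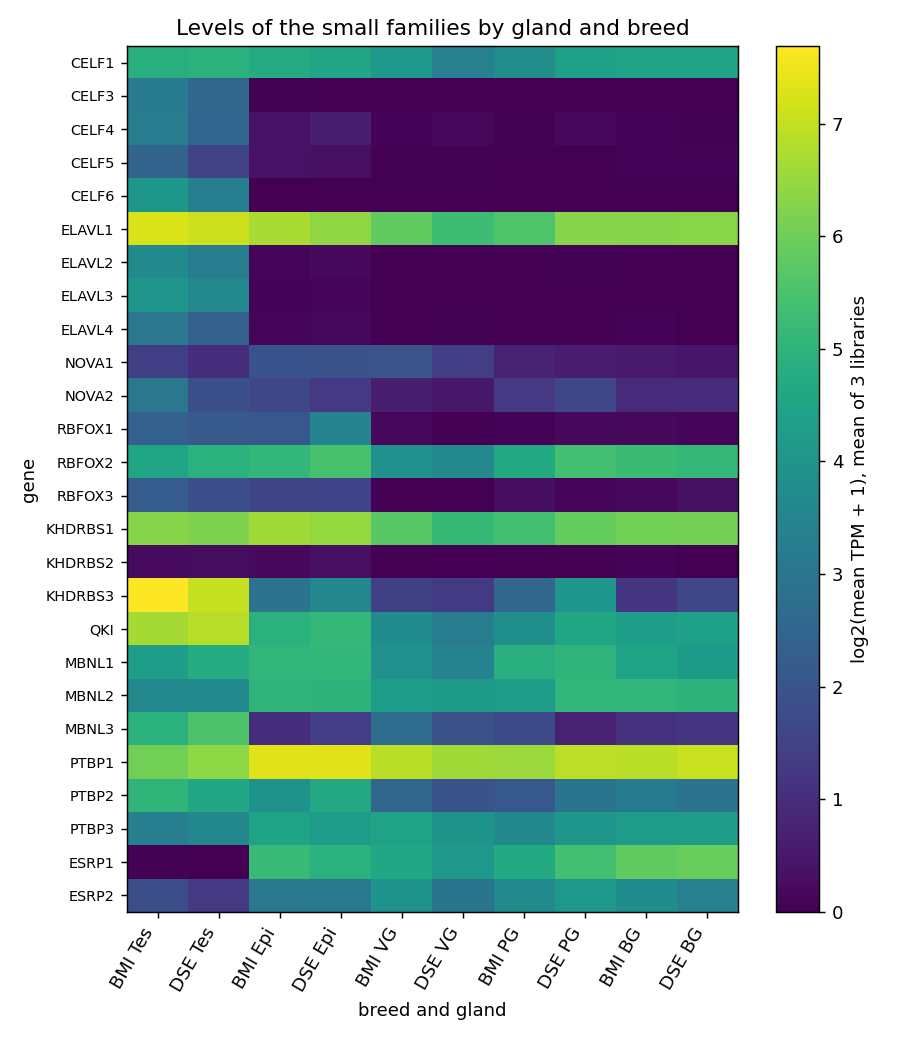
Levels of the 26 members of the 9 small families, as log2(mean TPM + 1) of the 3 libraries of each breed and gland. CELF3 to CELF6, ELAVL2 to ELAVL4 and KHDRBS3 are brightest in the testis columns, ESRP1 is dark there, and ELAVL1, PTBP1 and KHDRBS1 are bright in every column.

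KHDRBS3, QKI and MBNL3 were called higher in testis at higher levels than these. KHDRBS3 (T-STAR), a relative of Sam68 first known from testis, had 58.2, 190 and 214 TPM in the lowest, median and highest testis library and 0.870 to 21.1 TPM elsewhere (5.05 ± 0.30, adjusted p = 5.49e-14). KHDRBS1 (Sam68) had 65.5 to 86.9 TPM in testis, inside the range of the other glands of 23.6 to 111 TPM, and was not called (0.36 ± 0.14). QKI, a STAR protein that also shapes circular RNA formation, had 69.2 to 136 TPM in testis and 3.85 to 59.7 TPM elsewhere, again without overlap (2.58 ± 0.29, adjusted p = 1.38e-08).

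The muscleblind proteins bind YGCY motifs and are known for the switch from fetal to adult splicing. MBNL3 was called higher in testis, with 8.77, 36.2 and 90.8 TPM in the lowest, median and highest library against 0.229 to 9.37 TPM elsewhere (3.55 ± 0.38, adjusted p = 6.66e-09). The lowest testis library and the highest vesicular gland library of MBNL3 overlapped. MBNL2 was called lower, with 6.40 to 17.2 TPM in testis and 8.16 to 43.6 TPM elsewhere (-1.05 ± 0.26, adjusted p = 0.000794). It missed the size of 1 without BMI testis replicate 3 (-0.98) and without DSE testis replicate 1 (-0.87). When only Ensembl transcripts were summed, the MBNL2 difference turned to 0.43. MBNL1, PTBP1, PTBP3, HNRNPA1, HNRNPL and RBM4 were then called lower, and CELF1, HNRNPH3, RBM3 and RBM47 higher, none of which was called on all isoforms. MBNL1, with 13.6 to 37.4 TPM in testis, was not called (0.08 ± 0.23).

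Most of the members called higher in testis were lowest, among the 6 testis libraries, in DSE testis replicate 2. This held for 25 of the 31 (80.6%), among them RBM44, KHDRBS3 and SRSF12, and for 72.9% of all genes called higher. QKI and MBNL3 were the 2 that were highest in that library, with 136 TPM against 69.2 to 129 TPM for QKI and 90.8 TPM against 8.77 to 37.3 TPM for MBNL3. The part of cell type proportions in these levels was not tested.

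ESRP1 and ESRP2, the epithelial splicing regulatory proteins, were the opposite case. ESRP1 had 0, 0.0102 and 0.0717 TPM in the lowest, median and highest testis library and 8.63 to 66.3 TPM elsewhere (-4.99 ± 0.20, adjusted p = 1.70e-17). It was the only fitted member whose 6 testis libraries all lay below the other 24, a pattern met by 3.15% of all genes. ESRP2 had 0.870 to 3.81 TPM in testis and 3.24 to 18.1 TPM elsewhere, with a small overlap (-1.93 ± 0.18, adjusted p = 5.77e-10). As given above, the epithelial markers were lower in testis as well. EPCAM had 6.24 to 32.0 TPM in testis and at least 108 TPM elsewhere, and the part of epithelial cell number was not tested.

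PTBP1 and PTBP2 are related repressors of exons that replace each other as neurons differentiate. PTBP1 had 62.7, 67.1 and 103 TPM in the lowest, median and highest testis library and 84.5 to 170 TPM elsewhere. Its difference of -0.72 ± 0.10 (adjusted p = 9.35e-07) passed on p and missed the size of 1, and with size factors it was -0.97. PTBP2 had 17.9 to 36.3 TPM in testis and 2.47 to 32.6 TPM elsewhere and was called higher (1.79 ± 0.17, adjusted p = 7.17e-10). PTBP3, the third member of the family, was not called (-0.70 ± 0.23). Of the 6 testis libraries, DSE testis replicate 2 held the highest PTBP1 level and the lowest PTBP2 level.

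**Figure D3:**
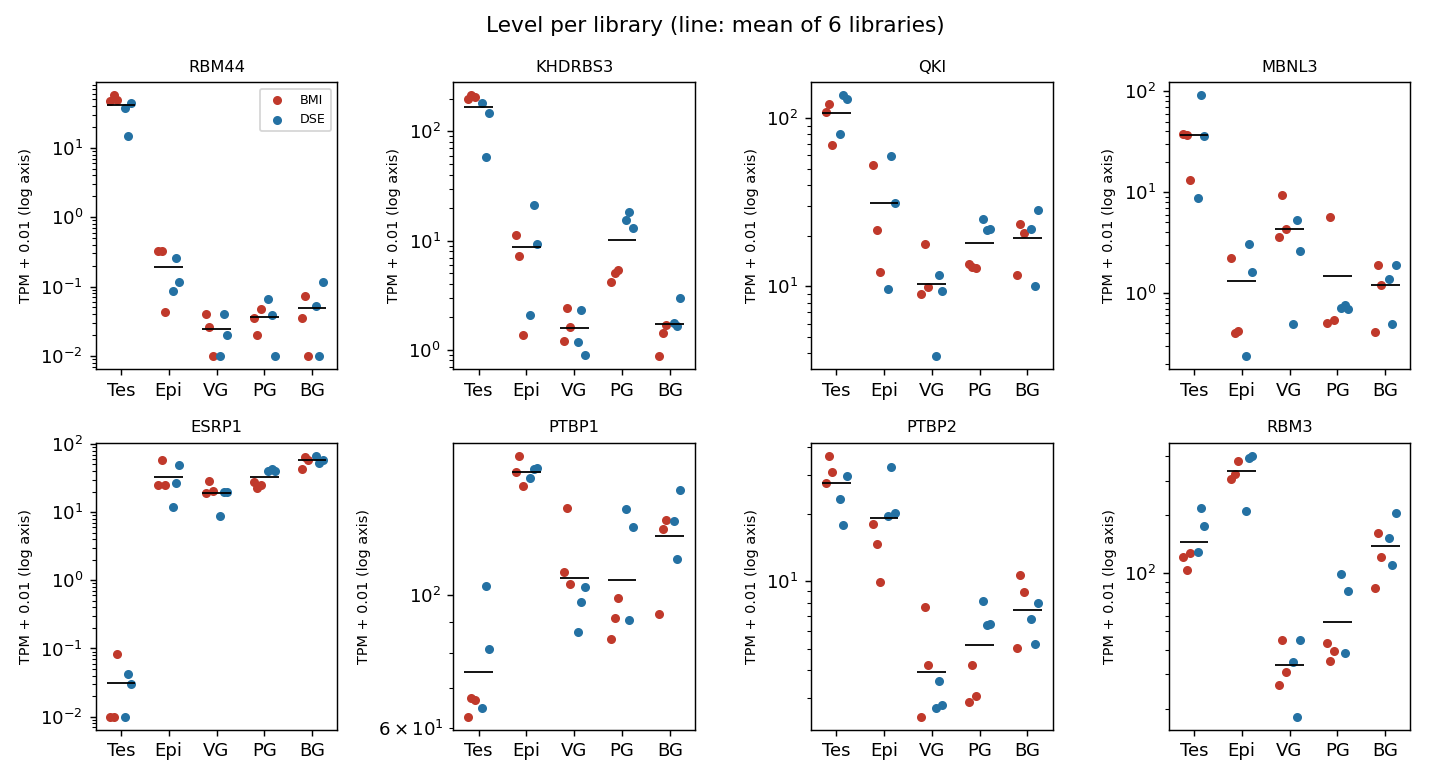
TPM + 0.01 on a log axis in each of the 30 libraries for 8 members, with BMI in red, DSE in blue and a line at the mean of the 6 libraries of a gland. RBM44, KHDRBS3 and QKI are separated upward in testis and ESRP1 downward, and RBM3 is highest in epididymis.

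Of the 38 RBM genes, 13 were called higher in testis and RBMS2 was called lower, beside 6855 and 2518 of all 19796 genes. The share called higher was thus close to that of all genes. With size factors 9 were higher and 3 lower, beside 6175 and 3081 of 19494 genes. Without DSE testis replicate 2 the counts were 14 and 3, and the share of all genes called in that fit is given above. RBM27 (2.29 ± 0.16), RBM20 (2.14 ± 0.18), RBM15 (2.10 ± 0.26), RBM6 (1.74 ± 0.15) and RBM26 (1.43 ± 0.18) followed RBM44 and RBM46 in size among those also called after division by size factors. RBM20, best known for titin splicing in the heart, had 2.08 to 5.63 TPM in testis and up to 2.25 TPM elsewhere. RBM15, a part of the complex that writes N6-methyladenosine, had 10.6 to 23.05 TPM in testis and 0.592 to 6.03 TPM elsewhere. RBM26 and RBM27, which belong to the adaptors of nuclear RNA decay, had 20.03 to 50.2 TPM and 8.65 to 28.5 TPM in testis. RBMS2 had 1.30 to 2.22 TPM in testis and 1.03 to 19.0 TPM elsewhere (-1.08 ± 0.26). When only Ensembl transcripts were summed, RBM44 and RBM20 had no fitted value, and RBM11, RBM14, RBM26, RBM34, RBMS3, HNRNPU and HNRNPLL were not called.

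Of the 15 HNRNP genes, HNRNPU and HNRNPLL were called higher in testis on deposited TPM (1.07 ± 0.18 and 1.14 ± 0.21). Of all 19796 genes, 6855 were called higher and 2518 lower. Neither HNRNPU nor HNRNPLL was called with size factors (0.82 and 0.90), where 6175 of 19494 genes were called higher. The other 13 were not called, and the family's median difference was 0.13, or -0.12 with size factors. Summed over the family, the testis libraries ran from 1417 to 1781 TPM, the epididymis libraries from 1293 to 2373 TPM and the vesicular gland libraries from 716 to 1662 TPM. HNRNPA1 has many near-identical copies in mammalian genomes, so its reads may be split among loci. The same holds for RBMXL1, which a second annotation of the same place names RBMX.

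Each of the other glands was then set against the mean of the remaining 3, without testis. In epididymis 8 members were called, all higher (8.99% of members, against 20.1% of all genes called and 17.7% called higher). The count was 14 without BMI epididymis replicate 3 (20.8% of all genes called higher), 16 with a pseudocount of 0.1 (28.1%), and 9 without BMI prostate gland replicate 2 (20.4% of all genes called), where NOVA1 was added as higher (1.01). RBM3, RBFOX1, PTBP2, RBM11 and RBFOX3 were also called higher with size factors, as were 9.12% of all genes. RBM25 (0.57), RBMXL1 (0.61) and SRSF5 (0.73) were not, and ESRP2 was added as lower (-1.07, against -0.54 on deposited TPM). The share of all calls that were higher moved from 87.9% to 63.6% with that scaling. RBM3, a cold-shock RNA-binding protein induced at temperatures below that of the body core, had 208, 353 and 401 TPM in the lowest, median and highest epididymis library. Its difference was 2.42 ± 0.20 (adjusted p = 5.48e-10), and its range in testis was 103 to 217 TPM. PTBP2 had 9.93 to 32.6 TPM in epididymis (1.65 ± 0.18).

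RBFOX1, a neuron and muscle regulator, varied widely between epididymis libraries. Its levels were 6.66, 2.07 and 0.986 TPM in BMI replicates 1, 2 and 3 and 1.23, 20.1 and 8.12 TPM in DSE replicates 1, 2 and 3 (2.26 ± 0.30, adjusted p = 1.12e-06). In the same order the 6 smooth muscle markers summed to 10740, 1799 and 4400 TPM and to 2812, 18434 and 6427 TPM. RBFOX1 was thus highest in the library with the most smooth muscle RNA, and the part of muscle in its level was not tested. RBM11 and RBFOX3 had another order, with 16.7 TPM (RBM11) and 4.10 TPM (RBFOX3) in BMI replicate 2 and 0.167 TPM and 0 TPM in DSE replicate 2.

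In vesicular gland 13 members were called (14.6% of members against 21.8% of all genes), 12 of them lower, as were 19.3% of all genes. The count was 21 without BMI vesicular gland replicate 2 (26.0% of all genes), 21 with a pseudocount of 0.1 (36.9%) and 14 without BMI prostate gland replicate 2 (22.8%), where ESRP1 was added as lower (-1.002). With size factors, where 11.3% of all genes were called, only RBM3 (lower) and MBNL3 (higher) among these 13 were still called, and NOVA1 was added as higher (1.28). The other 11 then had values from -0.62 (KHDRBS3) to -0.17 (SRSF1). The share of all calls that were higher moved from 11.5% to 54.5%. RBM3 had 18.2 to 45.2 TPM in vesicular gland (-2.004 ± 0.20, and -1.17 with size factors). MBNL3 had 0.483 to 9.37 TPM there (1.11 ± 0.40, adjusted p = 0.0188, and 1.68 with size factors). It was not called without BMI vesicular gland replicate 2 (0.93, adjusted p = 0.0672) or without DSE vesicular gland replicate 2 (0.87, adjusted p = 0.0813). The prostate libraries had 0.495 to 0.748 TPM of MBNL3, apart from 5.67 TPM in BMI prostate gland replicate 2. The median over all members was -0.65, close to the -0.54 of all genes.

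In prostate gland 2 members were called (2.25%, against 6.78% of all genes), and both were also called with size factors (6.92% of all genes) and without BMI prostate gland replicate 2 (8.56%). KHDRBS3 was higher than in the other 3 glands (1.41 ± 0.31, adjusted p = 0.00194), with 4.14 to 5.36 TPM in the BMI and 12.95 to 18.3 TPM in the DSE libraries. RBM3 was lower, with 35.04 to 99.2 TPM (-1.11 ± 0.20, adjusted p = 0.000273), and was not called without DSE prostate gland replicate 2 (-0.91). Without BMI prostate gland replicate 2 the differences were 1.40 ± 0.35 for KHDRBS3 and -1.07 ± 0.22 for RBM3. In bulbourethral gland 2 members were called (2.25%, against 12.7% of all genes), and 2 without BMI prostate gland replicate 2 (12.3%). The share of all calls that were higher moved from 61.7% to 45.1% with size factors. ESRP1 was higher there, with 42.6 to 66.3 TPM (1.11 ± 0.21), and was not called with size factors (0.82), where NOVA1 was added as lower (-1.06). KHDRBS3 was lower, with 0.870 to 2.96 TPM (-1.10 ± 0.31, and -1.26 with size factors), and was not called without DSE epididymis replicate 2 (-0.99).

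Between the breeds, NOVA2 in testis was the single call among the members, where 4.78% of all genes were called. Its testis levels were 7.59, 6.75 and 7.56 TPM in BMI and 1.19, 1.97 and 4.77 TPM in DSE, so that all BMI libraries lay above all DSE libraries. The difference was 1.31 ± 0.40 (adjusted p = 0.0483). It was still called in 8 of the 30 fits that left out 1 library and lost in the other 22, such as without DSE testis replicate 2 (adjusted p = 0.186), and it was not called with a pseudocount of 0.1 or with the replicate number as a block (adjusted p = 0.0581). In the fit of all libraries, CELF5 (0.995 ± 0.18), CELF6 (0.87 ± 0.20) and RBM44 (0.78 ± 0.24) also passed on p and missed the size of 1. The same held for CELF4 (0.77 ± 0.22) and ELAVL4 (0.77 ± 0.20), and all of these had passed the filter only through testis. Without DSE testis replicate 3, 7 members were called between the breeds in testis, all higher in BMI (7.87%, against 7.97% of all genes). These were CELF3, CELF5, CELF6, ELAVL4, RBM44, SRSF12 and NOVA2, named after their values were seen.

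In the other glands limma called no member between the breeds, against 0.702% of all genes in epididymis, 0.49% for the vesicular, 0.596% for the prostate and 0.298% for the bulbourethral gland. Unadjusted p below 0.05 was reached in epididymis by 3 members (against 7.14% of all genes). The vesicular gland had 12, or 13.5% of the members against 12.1% of all genes, all higher in BMI, with a median of 0.43 over all members that was 0 with size factors. After that division 4 passed (4.49%, against 8.94% of all genes), 2 in each direction. The prostate gland had 27, or 30.3% against 13.1%, all lower in BMI, with a median of -0.54 over all members that was -0.12 with size factors. After that division 6 passed (6.74%, against 9.03%), 4 of them lower in BMI. On deposited TPM without BMI prostate gland replicate 2 it had 25 (against 12.2% of all genes). The bulbourethral gland had 1 (against 3.96% of all genes). The test of whether the testis difference itself depended on the breed called no member at the size of 1, against 3.86% of all genes, with 12 members at an unadjusted p below 0.05 (against 16.1% of all genes). It called 0 without DSE testis replicate 2 (against 2.36% of all genes) and 7 without DSE testis replicate 3 (against 7.0%). Without BMI prostate gland replicate 2 it called 0 (against 3.88%). With size factors it called NOVA2 (1.32, adjusted p = 0.0325, against 1.35 and 0.0898 on deposited TPM). KHDRBS3 had the largest difference by breed and was not called (1.38 ± 0.60, adjusted p = 0.234). The testis difference was larger in BMI by 0.99 ± 0.20 for CELF5 and 0.87 ± 0.22 for CELF6. It was larger by 0.87 ± 0.24 for CELF4 and 0.77 ± 0.22 for ELAVL4. With 1 library left out, the lowest values were 0.82, 0.49, 0.61 and 0.40 in the same order. CELF4, CELF5, CELF6 and ELAVL4 had all passed the filter only through testis. The low germ cell markers of DSE testis replicate 2 fall on the same side as these differences, and their part was not tested.

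Isoform use was measured as the share of an isoform in its gene's TPM. Of 275 member isoforms with a mean share of at least 5%, from 69 genes, 58 isoforms of 36 genes were called (21.1%, against 26.4% of all isoforms) at a difference of at least 10 percentage points. An isoform could pass this minimum through testis alone, and how many of the 58 did so was not counted. Without DSE testis replicate 2, 54 of 276 were called (against 26.1% of all isoforms), and without BMI prostate gland replicate 2, 59 of 278 (against 26.9%). Of the 58, 17 were Ensembl transcripts and 41 were isoforms added by Iso-seq. Marks of a non-canonical splice site were carried by 6 and of template switching by 2. Salmon divides reads among isoforms that share exons, so these shares are estimates.

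The 8 isoforms with the largest differences belonged to 7 genes. RBM15 switched between a pair of Ensembl transcripts, with one rising by 41.8 ± 5.3 percentage points and the other at -41.0 ± 7.6. CELF1 isoform PB.10102.1 held 0 to 16.5% of the gene in testis and 19.6 to 62.6% elsewhere (-35.8 ± 5.2 points, adjusted p = 8.92e-06). HNRNPDL isoform PB.19303.17 held 18.6 to 56.7% in testis and at most 28.3% elsewhere (30.3 ± 3.7 points). The HNRNPL isoform that gained most (PB.15642.3, 36.1 ± 2.9 points) carries a non-canonical splice site. ESRP2 isoform PB.15426.3 gained 42.9 ± 10.2 points, and an Ensembl transcript of RBM45 differed by -36.1 ± 10.7 points. Both rest on low levels, since ESRP2 reached at most 3.81 TPM in testis and RBM45 had a mean of 5.05 TPM there.

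RBM25, a regulator of apoptosis factor splicing, had an isoform that was almost absent outside testis. Isoform PB.18179.50 took 14.9, 40.2 and 50.7% of the RBM25 TPM in the lowest, median and highest testis library and at most 1.39% elsewhere (38.2 ± 2.2 points, adjusted p = 1.98e-12). The gene as a whole was not called (-0.09 ± 0.20). The isoform carries 3 extra exons after the first, of 70, 134 and 117 bases, none of which is an exon in RefSeq. They are printed because they set the testis isoform apart, from Sscrofa11.1 at chr7:96415495-96415604, chr7:96416360-96416533 and chr7:96417629-96417785, plus strand, with the exon in capitals and 20 intron bases on each side. All 3 are flanked by AG and GT.
RBM25 exon of 70 bases: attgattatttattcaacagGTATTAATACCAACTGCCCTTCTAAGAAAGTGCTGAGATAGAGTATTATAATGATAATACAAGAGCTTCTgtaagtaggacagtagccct
RBM25 exon of 134 bases: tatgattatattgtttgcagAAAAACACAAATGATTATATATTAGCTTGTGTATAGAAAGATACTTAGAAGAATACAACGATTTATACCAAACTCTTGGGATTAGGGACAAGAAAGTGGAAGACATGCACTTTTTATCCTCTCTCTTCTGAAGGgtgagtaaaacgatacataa
RBM25 exon of 117 bases: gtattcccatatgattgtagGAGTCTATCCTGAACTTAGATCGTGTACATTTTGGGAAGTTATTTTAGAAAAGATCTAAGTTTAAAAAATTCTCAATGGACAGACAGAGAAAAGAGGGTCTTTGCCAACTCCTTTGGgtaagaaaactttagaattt

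The deposited coding prediction starts the open reading frame of this isoform inside the exon of 117 bases, at its base 76. As a share of the TPM of transcripts that hold or skip it, this exon was included at 18.3 to 57.0% in testis and at no more than 6.66% elsewhere. DSE testis replicate 2 gave the lowest testis value and the other 5 lay at 41.6% or above. In Iso-seq, 39 of 50 informative full-length reads of the testis libraries held the exon and 0 of 124 did in the other glands, which allows a share of up to 3.005% (Wilson 95% interval). Here and for the exons below, reads are pooled over breeds and over the other glands. The intervals therefore cover counting error only and not the spread between libraries or glands. The RBM25 reads carry a further limit. The isoform's reads by library sum to 37 while the deposited total for it is 4, a mismatch that affects 5234 of 110996 isoforms, and the informative reads of isoforms without the mismatch number only 2 in testis and 3 elsewhere. The genome after the isoform's end is 85% A, which can prime reverse transcription inside a transcript, so its 3′ end is uncertain.

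Exon inclusion, as this share is called from here on, was computed for a few exons chosen after the isoform shares were seen, and is given without a test. MBNL1 has exons of 54 and 36 bases near the end of its coding region, of which the first is known to govern nuclear localization and to be skipped under control of MBNL proteins themselves. Both are shown from Sscrofa11.1, chr13:92676862-92676955 and chr13:92686282-92686357, plus strand, with the exon in capitals.
MBNL1 exon of 54 bases: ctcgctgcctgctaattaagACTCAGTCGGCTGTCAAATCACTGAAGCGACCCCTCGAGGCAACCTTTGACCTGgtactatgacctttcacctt
MBNL1 exon of 36 bases: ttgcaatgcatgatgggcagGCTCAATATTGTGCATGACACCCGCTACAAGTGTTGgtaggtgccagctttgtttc

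Both exons were used less in testis. Inclusion of the exon of 54 bases was 3.54, 7.95 and 8.59% in the lowest, median and highest testis library and 16.6 to 60.5% elsewhere, without overlap. In full-length reads it was 3 of 65 in testis (4.62%, Wilson 95% interval 1.58 to 12.7%) and 232 of 503 in the other glands (46.1%, 41.8 to 50.5%). The exon of 36 bases was included at 9.62 to 25.3% in testis and 11.3 to 54.6% elsewhere, with overlap. The isoform that skips both, PB.4862.7, rose by 29.3 ± 4.5 percentage points in testis, although the MBNL1 level as a whole was not called.

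PTBP2 carries an exon of 34 bases whose skipping shifts the reading frame. PTBP1 is known to promote skipping of this exon and thereby decay of the PTBP2 transcript. In Sscrofa11.1 the stretch chr4:120970200-120970363, minus strand, holds the exon in capitals with 100 bases before and 30 after it.
PTBP2 exon of 34 bases: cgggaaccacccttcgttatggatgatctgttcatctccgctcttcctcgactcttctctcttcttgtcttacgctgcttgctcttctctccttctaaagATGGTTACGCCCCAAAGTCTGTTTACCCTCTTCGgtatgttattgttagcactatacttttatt

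Pyrimidines made up 73% of the 100 bases before this exon, against a median of 55% for the 1488 internal exons of the members, of which 2.08% reached as much. This is a description of the sequence and not a site. Inclusion was 39.2, 52.0 and 53.9% in the lowest, median and highest testis library and 0 to 54.3% elsewhere, so that the ranges overlapped. Mean inclusion was 49.7% in testis and 35.4% in epididymis. The vesicular, prostate and bulbourethral glands had means of 27.3, 28.9 and 21.5%, and that of prostate gland was 28.6% without BMI prostate gland replicate 2. The full-length reads were further apart, with 77 of 88 in testis (87.5%, Wilson 95% interval 79.0 to 92.9%) and 12 of 67 in the other glands (17.9%, 10.6 to 28.7%). The skipping isoform PB.13923.12, marked for NMD, held 6.02 to 36.3% of the PTBP2 TPM in testis and 21.7 to 66.3% elsewhere (-23.1 ± 5.4 points, adjusted p = 0.00173).

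**Figure D4:**
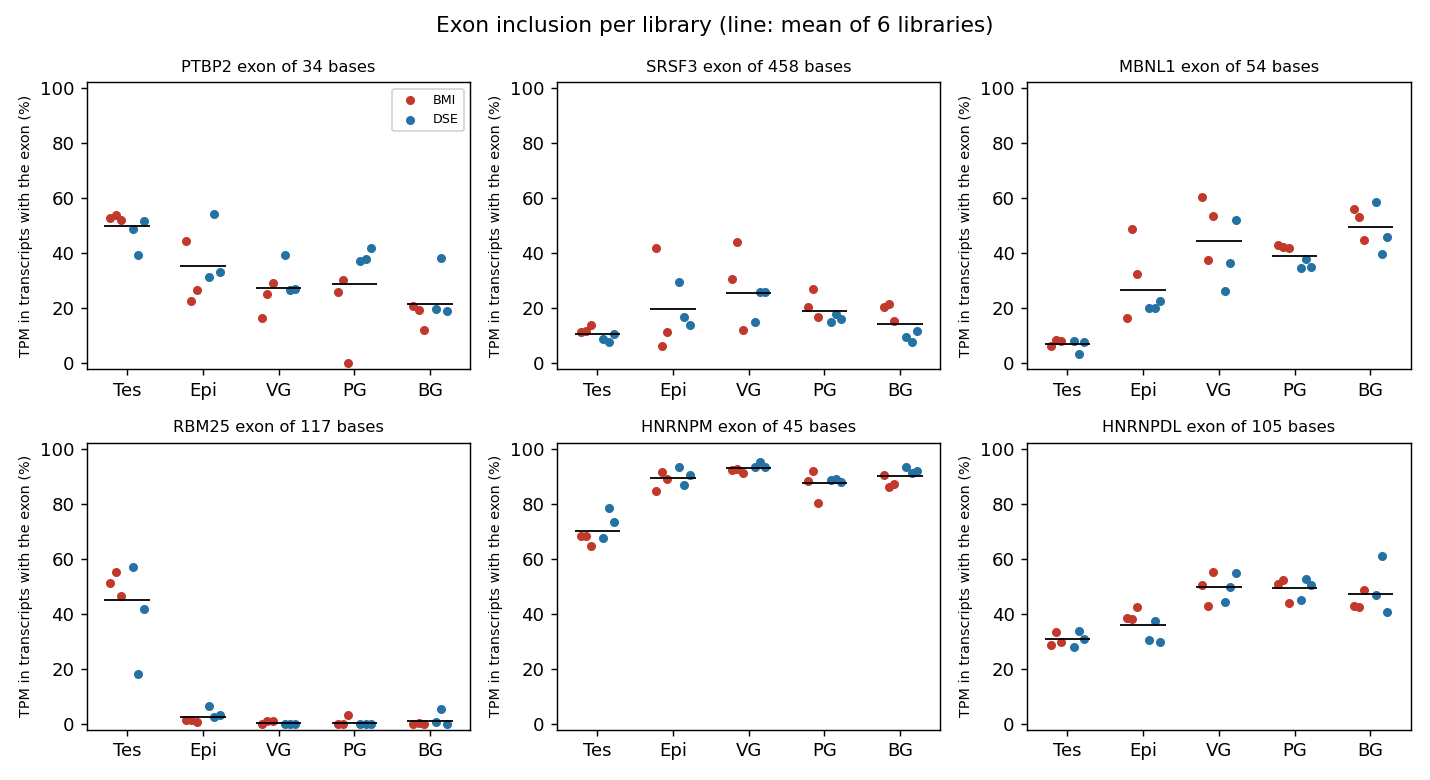
Inclusion of 6 exons in each of the 30 libraries, as the percent of TPM in transcripts that hold the exon among those that hold or skip it, with BMI in red, DSE in blue and a line at the mean of each gland. The MBNL1 and HNRNPM exons lie lower in testis, the RBM25 exon is present there alone above 6.66%, and the PTBP2 and SRSF3 panels show overlapping ranges.

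HNRNPM, a regulator of splicing in epithelial and mesenchymal cells, has an exon of 45 bases that was included at 64.6 to 78.6% in testis and at 80.4 to 95.1% elsewhere. The full-length reads gave 278 of 355 (78.3%, Wilson 95% interval 73.7 to 82.3%) in testis and 1375 of 1457 (94.4%, 93.1 to 95.4%) elsewhere. The exon lies at chr2:70827856-70827900, minus strand. The HNRNPDL exon of 105 bases was included at 27.8 to 33.8% in testis and 29.8 to 60.9% elsewhere.

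The last readout was the share of a gene's TPM in Iso-seq isoforms that SQANTI3 predicts to undergo NMD. Of 35 members fitted, 11 were called at a difference of at least 5 percentage points (31.4%, against 28.0% of all genes). In 9 of them the share was lower in testis (25.7%, against 15.9% of all genes) and in 2 it was higher (5.71%, against 12.1%). Without DSE testis replicate 2, the counts were 6 lower (17.1%, against 14.9% of all genes) and 2 higher (against 12.7%). Without BMI prostate gland replicate 2, 11 were called (against 28.5% of all genes). PTBP2 (adjusted p = 0.134), RBM23 (adjusted p = 0.0770) and RBM5 (adjusted p = 0.0533) were the calls lost without DSE testis replicate 2.

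By the ratio of medians, HNRNPDL had the widest gap among the 9 lower shares, with 3.41, 3.99 and 10.5% in the lowest, median and highest testis library and 8.77 to 37.0% elsewhere (-17.1 ± 2.9 points, adjusted p = 8.54e-05). RBM25 had 8.07 to 19.6% in testis and 18.1 to 39.5% elsewhere (-14.9 ± 2.5 points, adjusted p = 6.82e-05). Its testis isoform PB.18179.50 counts in the gene's TPM, so this share and the share of that isoform are not independent. In SRSF3, an SR protein known to control its own poison exon, the share was 9.95 to 15.9% in testis and 16.4 to 40.7% elsewhere, without overlap (-12.3 ± 2.9 points, adjusted p = 0.00173). The gene level of SRSF3 itself was not called (0.13 ± 0.22).

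The poison exon of SRSF3 covers 458 bases at chr7:32293963-32294420, plus strand. Its start is printed with the 40 bases before it, chr7:32293923-32294062, and the capitals mark the stop codon that ends the predicted reading frame, at bases 32 to 34 of the exon.
SRSF3: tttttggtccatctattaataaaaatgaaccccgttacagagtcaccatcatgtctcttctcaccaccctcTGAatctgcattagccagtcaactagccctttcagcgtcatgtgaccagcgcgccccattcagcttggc

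The exon itself was included at 7.90 to 13.8% in testis and 6.24 to 43.9% elsewhere by TPM, with overlap. By full-length reads it was 24 of 212 in testis (11.3%, Wilson 95% interval 7.73 to 16.3%) and 156 of 710 in the other glands (22.0%, 19.1 to 25.2%). Transcripts under decay are measured at their remaining level, so these shares are not the shares made by splicing.

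The remaining lower NMD shares were those of ESRP2 (-21.2 ± 6.0 points), RBMXL1 (-17.7 ± 4.5), PTBP2 (-11.1 ± 4.1), RBM23 (-6.83 ± 2.56), RBM5 (-5.53 ± 1.81) and RBM3 (-5.02 ± 1.15). RBM45 (38.4 ± 10.3) and RBM4 (16.6 ± 1.8) were higher in testis. RBM4 had an NMD share of 9.60 to 36.9% in testis and at most 8.48% elsewhere. ESRP2 was at or above 1 TPM in only 5 testis libraries. The NMD mark is a prediction, and it covered most of the TPM of SRSF9 (90.8 to 93.0% in testis) and of HNRNPUL1 (92.9 to 96.7% in testis), genes with abundant transcripts.

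**Figure D5:**
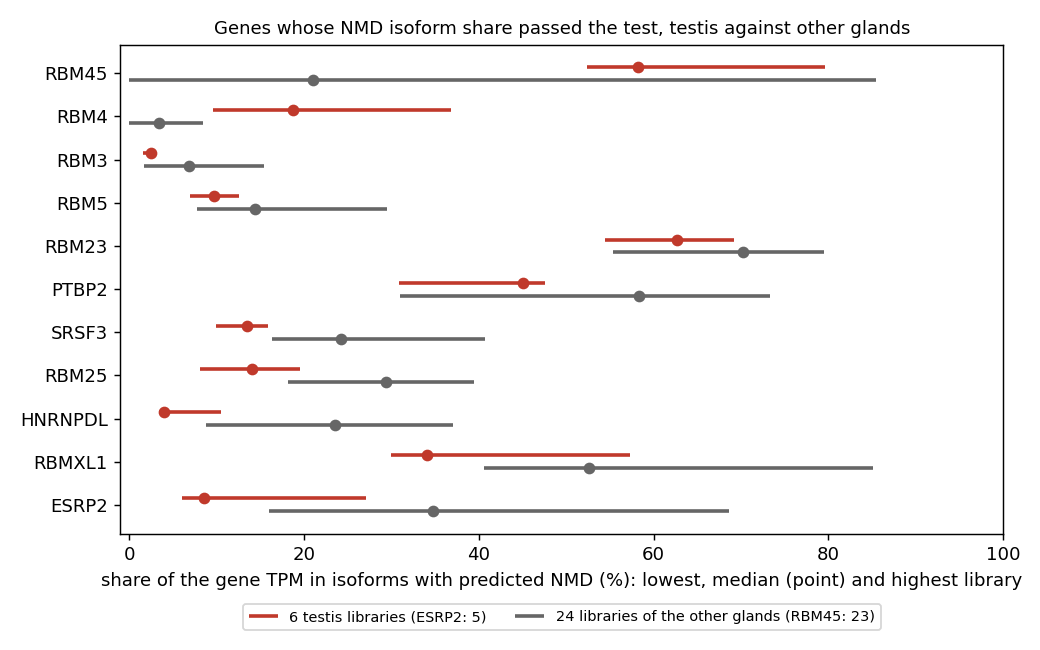
Share of gene TPM in isoforms with predicted NMD for the 11 called members, with the lowest, median (point) and highest testis library in red and the same for the other glands in grey. Testis medians lie below those of the other glands for 9 genes and above for RBM4 and RBM45.

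Iso-seq, with 1 library per breed and gland, gave 1231 isoforms and 43957 full-length reads of members, and 84 of the 90 genes had at least 1 isoform. Libraries held 231413 to 458697 reads, of which the members took 3314 to 6304. HNRNPK, a poly(C)-binding protein, had the most isoforms (73, with 5369 reads). RBM44 had 219 reads in the DSE and 206 in the BMI testis library and 0 in each of the other 8 libraries. RBM46 had 53 and 60 reads in testis and 1 read elsewhere. ESRP1 had 0 reads in both testis libraries and 3 to 86 reads in each other library.

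The low neuronal regulators were at the limit of this depth. ELAVL2 had 16 and 22 reads in the DSE and BMI testis libraries, CELF6 had 1 and 1, and CELF4, CELF5, NOVA2, RBFOX1, RBFOX3 and KHDRBS2 had no Iso-seq isoform. In the members, predicted NMD isoforms took 11.3% of reads in DSE testis (Wilson 95% interval 10.4 to 12.2%) and 8.88% in BMI testis (8.14 to 9.69%), against 9.25% and 9.11% over all genes. The other libraries ranged from 7.49 to 14.4% in the members, on both sides of testis, and from 8.25 to 15.2% (BMI prostate gland) over all genes, and intervals cover counting error only.

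Genes that work with these regulators were counted from lists in the same fit. Of 38 core spliceosome genes, 13 were called higher in testis and 0 lower, with a median difference of 0.66. Of all 19796 genes, 6855 were called higher and 2518 lower, with a median of 0.31, so the share called higher was close. SNRPD1, a ring protein of the spliceosomal snRNPs, led with 36.4 to 131 TPM in testis and 3.51 to 20.3 TPM elsewhere (3.41 ± 0.16). With size factors 10 of the 38 were called higher, with a median of 0.42. For all 19494 genes in that scaling, 6175 were called higher and 3081 lower, with a median of 0.13. Of 11 kinases and phosphatases of SR proteins, 5 were called higher and 1 lower, with a median of 0.14. With size factors 3 were higher and 1 lower, with a median of -0.09. SRPK2, a kinase of SR proteins, had 60.02 to 190 TPM in testis and 2.49 to 24.9 TPM elsewhere (3.32 ± 0.26), and PPP1CC and SRPK1 followed (2.63 ± 0.21 and 2.28 ± 0.18).

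Of 17 genes of the exon junction complex and the NMD pathway, 10 were called higher in testis and 0 lower, with a median of 1.30, or 1.08 with size factors. UPF3A, an NMD factor known for high levels in testis, had 24.2, 78.3 and 83.0 TPM in the lowest, median and highest testis library and 0.498 to 4.20 TPM elsewhere (4.68 ± 0.18, adjusted p = 3.68e-18). TDRD6, a chromatoid body protein counted in this list, had 7.89 to 36.3 TPM in testis and at most 1.03 TPM elsewhere. Of 35 further splicing regulators outside the 12 name groups, 9 were called higher and 2 lower, with a median of 0.34, or 0.10 with size factors. PCBP3, a poly(C)-binding protein, had 31.0 to 78.1 TPM in testis and at most 0.944 TPM elsewhere (5.73 ± 0.15). Of 17 germ cell RNA-binding genes, 12 were called higher and 0 lower, with YBX2, a germ cell mRNA-packaging protein, at 819 to 3631 TPM in testis (9.40 ± 0.33). These lists were drawn up with earlier results of the data known, and 34.6% of all genes were called higher in the same comparison.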

How the data were processed

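Per the labels and the study's methods, RNA-seq reads were quantified by the authors with Salmon 1.9.0 on Ensembl transcripts joined with unannotated Iso-seq isoforms, and the values were deposited as TPM, which carry no depth. The read totals stated by the study were not used here. Iso-seq values were deposited by the authors as counts of full-length reads per isoform and library, classified with SQANTI3 on Sscrofa11.1. The labels state rRNA depletion where the methods state poly-T beads. The small RNA table was not used here.

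TPM was summed by gene. Fusion isoforms stayed out of the sums. Genes that reached 1 TPM in 3 or more libraries were fitted as log2(TPM + 1) with limma 3.58.1 in R 4.3.3 (a mean per breed and gland, eBayes with trend) and Benjamini-Hochberg adjustment over all genes. Fold changes on this scale understate changes of low genes. Shares used genes at 1 TPM or more in a library, without trend. Each fit was tested on simulated data. Alternatives were a pseudocount of 0.1, no filter, size factors, no trend, a replicate block, Ensembl transcripts only, other minimums and leaving out each library.

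Members and lists were chosen with earlier results of these data known. The small families were all named. Of SRSF, HNRNP and RBM genes, those named were the 8 largest differences in each direction also called with size factors, up to 3 per other gland, all breed calls, the 8 largest isoform differences and the NMD calls. Others were named after their values were seen.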

Additional observations from a re-analysis of the deposited data

How the results depend on the processing

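Calls of members in testis against the other glands numbered 35, and from 30 to 37 under the other settings and 31 to 38 when each library was left out. With Ensembl transcripts only, 35 members were called as well, but 25 were shared, and MBNL2 turned from -1.05 to 0.43. RBM11, RBM14, RBM34 and RBMS3 missed the size of 1 in at least 1 fit without a library (lowest values 0.89 to 0.99), as did RBFOX3 in epididymis (0.97 without BMI epididymis replicate 2) and MBNL1, PTBP2, QKI, SRSF1 and SRSF10 in vesicular gland. In epididymis the 8 calls became 16 with a pseudocount of 0.1 (7 to 14 with each library left out, 14 without BMI epididymis replicate 3). In vesicular gland the 13 became 21 with a pseudocount of 0.1 and 3 with size factors (9 to 21, 21 without BMI vesicular gland replicate 2). In prostate gland the 2 became 4 with a pseudocount of 0.1 (1 to 2), and in bulbourethral gland the 2 remained 2 or became 3 (1 to 3). With that pseudocount the share of all genes called also rose in epididymis and vesicular gland, as given above. It is not given for the prostate and bulbourethral glands. Between breeds in testis the 1 call became 0 with a pseudocount of 0.1 and 0 without a filter (0 to 7, 7 without DSE testis replicate 3). The count was 0 to 1 with libraries left out in epididymis and vesicular gland, and 0 in the others. The breed by testis count of 0 became 1 with size factors (0 to 7). Isoform calls numbered 49 to 66 under the other settings (50 to 63) and NMD calls 8 to 12 (8 to 12). Replicate numbers were not said to mark animals. Same-numbered libraries of a breed had a median correlation of deviations of 0.041 (-0.298 to 0.390), and of 20 pairs of glands within a breed, only DSE epididymis with vesicular gland (0.228 to 0.390) and DSE testis with vesicular gland (0.149 to 0.292) had all 3 correlations over 0.1, so the numbers were not taken as pairs. The replicate block gave 35 calls in testis, 60 isoforms and 11 NMD shares, and it replaced NOVA2 by SRSF12 as the single breed call in testis. The cause of these changes was not tested. TPM carry no depth, and genes under 1 TPM are the least certain.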
